A study of Botryllus schlosseri with 27 samples.

Results

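This report follows 3 contigs of the colonial tunicate Botryllus schlosseri, out of 50106 in the count table, whose closest human proteins are caspase 2 (Bot_c10337), programmed cell death protein 5, or PDCD5 (Bot_rep_c35773), and cell division cycle protein 23, or CDC23 (Bot_rep_c37856). They were chosen by name from the study's short list of contigs that differed between old and young colonies outside the fertility genes. The choice therefore used the old and young values. Those values are given here as a description with no test, and tests were kept to differences between lines, to the 2-year colonies and to differences between lines in the young minus old change. All 3 contigs passed the filter on low counts in every fit.

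Caspases are proteases that cut other proteins during apoptosis, and caspase 2 is an initiator caspase that mammalian cells activate after DNA damage and faulty mitosis. PDCD5 is a small protein that in human cells moves into the nucleus and promotes cell death. CDC23 is a subunit of the anaphase-promoting complex, the ubiquitin ligase that marks cyclins and securin for destruction so that chromosomes can separate and mitosis can end. A Botryllus colony depends on both processes, because each generation of zooids is resorbed by apoptosis and phagocytosis while the next one grows from buds.

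RNA from whole colonies was sequenced from 3 wild-type lines, SB825, SMG and SMH, each at 3 ages, with 3 libraries per line and age. Old colonies were generation g1 at 3 years, 2-year colonies were generation g2, the offspring of g1, and young colonies were generation g3, the offspring of g2, at 4 months. Age and generation thus changed together and cannot be told apart. Colonies were sampled at stage B2 of the budding cycle, before the old zooids are resorbed, with 3 systems taken per sample. Because a line's libraries at 1 age carry a single genotype name, they were summed, which gave 9 sums, each called a colony here. Whether the 3 libraries of such a sum came from 1 colony or from separate ones is not known. In RNA from whole colonies, fewer cells of a type and less RNA per cell cannot be told apart.

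Sequencing depth was 31013902 to 48426188 reads per library (median 37366126) and 109038294 to 126872964 per colony sum. Every count was an even number, so reads appear to have been counted by pairs, and levels are counts per 1000000 reads (CPM) after TMM scaling. The young SMG colony stood apart, since 14.9% of the 44811 tested contigs had no read in it, against 1.73% to 3.74% in the other 8 colonies. The count table spells the line of these 3 libraries SMGO, whereas the sample labels spell it SMG. The tests over colonies, the ratios, the likeness and the directions of gene lists are also given without it or without its line.

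The caspase 2 contig was the scarcest of the 3 in reads, and its level stood out in a single colony. In SB825 the 3 libraries held 38, 20 and 26 reads in the old colony, 50, 56 and 62 in the 2-year colony, and 18, 10 and 20 in the young colony. In SMG they held 16, 26 and 24 reads in the old, 26, 20 and 18 in the 2-year, and 222, 202 and 252 in the young colony. In SMH they held 58, 34 and 26 reads in the old, 30, 54 and 44 in the 2-year, and 68, 96 and 86 in the young colony. The young SMG libraries lay above every other library, and the young SB825 libraries were among the lowest.

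Summed by colony, caspase 2 was at 0.648 CPM in old, 1.1 in 2-year and 0.344 in young SB825. It was at 0.613, 0.720 and 6.41 CPM in SMG, and at 1.19, 1.20 and 2.27 CPM in SMH, in the same order of ages. The mean over lines was 0.819 ± 0.326 CPM (SD, n = 3 colonies) at old age, 1.01 ± 0.252 at 2 years and 3.01 ± 3.10 in young colonies. Old and young colonies overlapped, because the young SB825 colony was the lowest of the 9, while the young SMG colony held 71.1% of the young signal. SB825 had a young over old log2 ratio of -0.92, SMG of 3.39 and SMH of 0.92. Its mean of 1.13 ± 2.16 (SD, n = 3 lines) was smaller than its spread, and without SMG the mean was 0.00. The young SB825 level rested on 24 read pairs, which is 0.440 CPM of pairs before TMM scaling (95% exact Clopper-Pearson interval 0.282 to 0.655), against 0.764 (0.551 to 1.03) in old SB825. These intervals cover counting error only. They overlap, but overlap of separate intervals is no test of the difference, which was not tested.

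PDCD5 had the widest range of the 3 members, and in every line the young colony was above the old one. In SB825 the 3 libraries held 10, 20 and 24 reads in the old colony, 840, 812 and 928 in the 2-year colony, and 1974, 2230 and 2172 in the young colony. In SMG they held 898, 734 and 1004 reads in the old, 836, 942 and 696 in the 2-year, and 3878, 4294 and 4228 in the young colony. In SMH they held 116, 138 and 134 reads in the old, 406, 540 and 496 in the 2-year, and 550, 878 and 772 in the young colony. The old SB825 libraries were nearly without this transcript, while in CPM the old SMG libraries (23.8 to 26.1) were above the young SMH libraries (18.2 to 19.4).

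The PDCD5 colony levels were 0.417, 16.9 and 45.6 CPM in old, 2-year and young SB825. They were 24.5, 27.9 and 118 CPM in SMG and 3.93, 13.5 and 19.9 CPM in SMH. From the lowest to the highest colony the level spanned 282-fold, against 18.7-fold for caspase 2 and 10.4-fold for CDC23. Means over lines were 9.61 ± 13.0 CPM (SD, n = 3) in old, 19.4 ± 7.51 in 2-year and 61.1 ± 50.7 in young colonies. Old and young colonies overlapped, since old SMG was above young SMH. The old SB825 level rested on 27 read pairs, which is 0.491 CPM of pairs before scaling (95% exact interval 0.324 to 0.715), which set the young over old log2 ratio of 6.78 in that line. The ratio was 2.26 in SMG and 2.34 in SMH. Its mean of 3.79 ± 2.58 (SD, n = 3 lines) was 2.30 without SB825 and 4.56 without SMG.

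CDC23 had the smallest range of the 3 members, and in each line its young colony was above its old one. In SB825 the 3 libraries held 184, 218 and 222 reads in the old colony, 162, 178 and 210 in the 2-year colony, and 412, 432 and 468 in the young colony. In SMG they held 108, 74 and 132 reads in the old, 114, 96 and 64 in the 2-year, and 374, 424 and 356 in the young colony. In SMH they held 40, 30 and 34 reads in the old, 134, 146 and 116 in the 2-year, and 128, 228 and 178 in the young colony. Within each line the young libraries were above the old ones in CPM, and the old SMH libraries were the lowest of all 27.

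The CDC23 colony levels were 4.81, 3.60 and 9.39 CPM in old, 2-year and young SB825, 2.92, 3.08 and 10.9 CPM in SMG, and 1.05, 3.70 and 4.84 CPM in SMH. Means over lines were 2.93 ± 1.88 CPM (SD, n = 3) in old, 3.46 ± 0.331 in 2-year and 8.39 ± 3.18 in young colonies. The highest old colony (SB825, 4.81) and the lowest young one (SMH, 4.84) were level, and their order turned under the other scalings, at 4.80 against 4.70 CPM with median-of-ratios size factors and 5.68 against 4.52 with library totals alone, so old and young colonies met. Young over old log2 ratios of 0.96 (SB825), 1.91 (SMG) and 2.20 (SMH) gave a mean of 1.69 ± 0.65 (SD, n = 3 lines) that was 1.58 without SMG. Among the 44811 contigs tested, 7.75% had all young colonies above all old ones, and 16.9% were higher in the young colony in all 3 lines. Since the members were chosen on this contrast, nothing is read from their share.

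**Figure D1:**
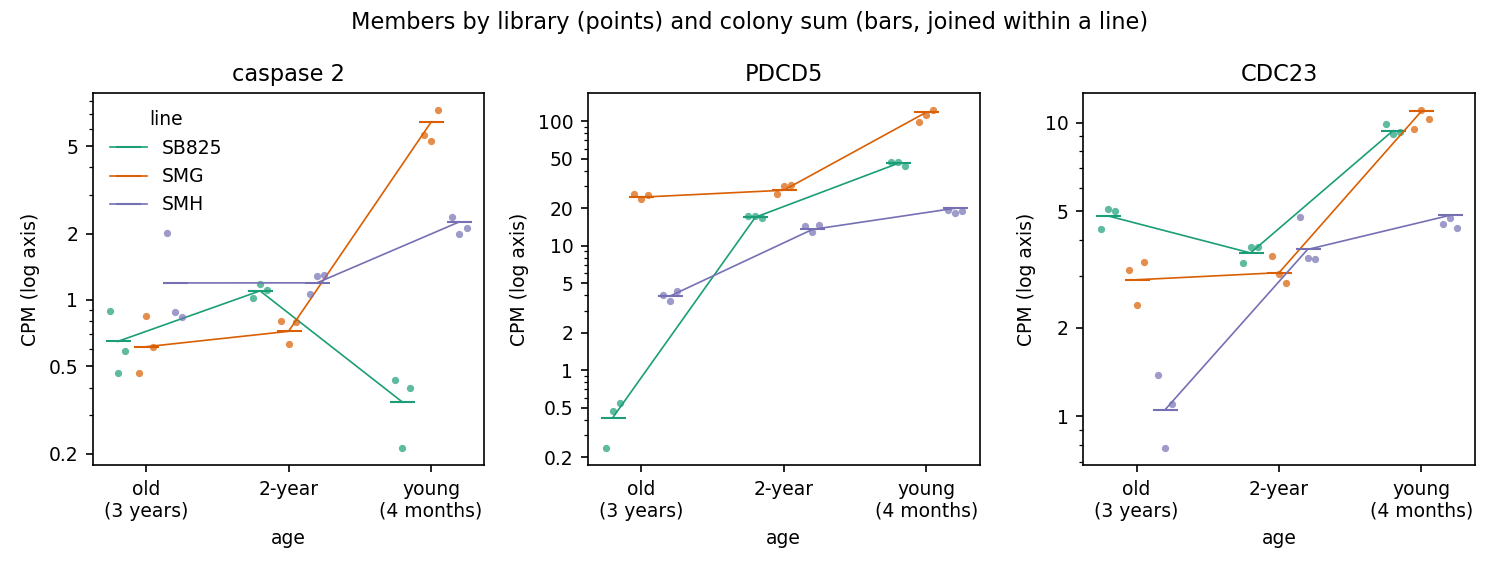
Levels of caspase 2, PDCD5 and CDC23 in CPM (log axis) by age, with 1 point per library, a horizontal bar for each colony sum, and lines joining the colonies of SB825, SMG and SMH. The young SMG colony is the highest in all 3 panels (6.41, 118 and 10.9 CPM), and the old SB825 colony drops to 0.417 CPM for PDCD5.

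The young SMG colony was the highest of the 9 for all 3 members, as it was for 23.3% of all tested contigs. The libraries of a colony lay closer together than the young colonies did. The coefficient of variation among the 3 libraries of a colony had a median over the 9 colonies of 17.7% for caspase 2, 7.26% for PDCD5 and 8.69% for CDC23. Among the 3 young colonies it was 103%, 82.9% and 37.8% for the same members, and between the 2 left without SMG it was 104%, 55.5% and 45.3%. Among the 3 old colonies it was 39.8% for caspase 2, 135% for PDCD5 and 64.2% for CDC23. For PDCD5 and CDC23 the old colonies were thus spread more widely than the young ones. The 2-year colonies were closer to each other than those of either other age, at 25.0% for caspase 2, 38.7% for PDCD5 and 9.56% for CDC23.

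The 2-year colonies were not part of the comparison that chose the members. Their levels are set beside the old and young levels here. In age the 2-year colonies were nearer to the old colonies than to the young ones. In SMG all 3 members stayed near their old level, with 2-year over old log2 ratios of 0.23 for caspase 2, 0.19 for PDCD5 and 0.08 for CDC23, and the old and 2-year libraries overlapped for each. In this line 78.6% of the contigs with reads at every age were nearer the old than the young level at 2 years, so the members went with most contigs. In SB825, where the share was 55.1%, PDCD5 was 5.34 above old and 1.43 below young on the log2 scale, whereas CDC23 was -0.42 relative to old. Caspase 2 in SB825 was higher at 2 years than at either other age. In SMH, where the share was 54.5%, PDCD5 and CDC23 were 1.78 and 1.81 above old, and caspase 2 was at its old level (log2 ratio 0.00). With TMM scaling PDCD5 had levels ordered old, 2-year, young in all 3 lines, as 1.67% of all tested contigs did, but with library totals alone it had that order in 2 lines, because 2-year SMG (21.6 CPM) was then below old SMG (22.4). No steady order is read for caspase 2 or CDC23: each had it in 2 lines with TMM and in 1 with library totals alone, and caspase 2 in SMH was level at old age and 2 years.

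Over the 9 colonies no member passed edgeR's quasi-likelihood test of the 2-year level against the midpoint of old and young. The midpoint is the mean of the old and young log2 levels, so this test does not ask whether the 2-year level lies between them. That midpoint was taken from the old and young colonies that also chose the members, so only the 2-year side of the test is from other samples. The log2 difference from the midpoint was -0.37 for caspase 2 (standard error 0.82), 0.29 for PDCD5 (0.80) and -0.32 for CDC23 (0.43), each with an adjusted p of 0.997. Of the 44811 contigs, 0 passed the 10% false discovery rate (0%), 1401 had an unadjusted p below 0.05, and DESeq2 called 295. The standard errors are wide, so the test could miss sizeable departures. Without the young SMG colony the difference was 0.36 for caspase 2, 0.30 for PDCD5 and -0.17 for CDC23.

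The lines were compared over the 9 colonies with age as a covariate. No member passed this test, with adjusted p of 0.764 for caspase 2, 0.344 for PDCD5 and 0.501 for CDC23, against 3.13% of contigs that passed. The largest estimates were for PDCD5, at 2.18 (standard error 1.01) for SMG minus SB825 and 2.20 (0.96) for SMG minus SMH on the log2 scale. Without the young SMG colony the adjusted p was 0.323 for caspase 2, 0.380 for PDCD5 and 0.418 for CDC23. The number of contigs called rested on single colonies: 1402 passed, but 458 passed without old SB825, 715 without old SMG, 861 without old SMH, 11 without 2-year SMG, 10 without young SMH, 4214 without young SMG, and 0 without 2-year SB825, young SB825 or 2-year SMH.

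At 2 years alone the 3 colonies were compared against the spread of their libraries, which speaks for these colonies and not for the lines. PDCD5 differed (edgeR adjusted p = 5.94e-08). Its libraries were at 16.6 to 17.2 CPM in SB825, 25.8 to 30.9 in SMG and 12.8 to 14.7 in SMH, with no overlap. The log2 difference was 0.76 for SMG minus SB825 (standard error 0.12) and 1.05 for SMG minus SMH (0.12), and -0.28 (0.12, adjusted p = 0.0564) for SMH minus SB825. By the same test 74.7% of 43180 contigs differed, so a difference between these colonies was common. CDC23 did not pass (adjusted p = 0.255), with library ranges of 3.32 to 3.76, 2.84 to 3.52 and 3.43 to 4.76 CPM in SB825, SMG and SMH. Caspase 2 did not pass either (adjusted p = 0.111), at 1.02 to 1.18, 0.634 to 0.803 and 1.07 to 1.30 CPM, although the SMG libraries lay below the others and SMG minus SMH taken alone was -0.72 (0.32, adjusted p = 0.0756). Caspase 2 passed without library 1 of old SMH (0.0537), library 3 of old SMH (0.0982), library 1 of old SB825 (0.0978) or library 2 of young SB825 (0.0968), each of which enters the estimate of the spread. Scaling by library totals alone brought caspase 2 (0.000476) and CDC23 (5.71e-05) past the threshold.

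Whether the young minus old difference varied between lines was tested against the spread of libraries, which again concerns single colonies. The test uses the old and young libraries that also chose the members, although it compares lines, and 80.8% of all contigs passed it, so nothing about the members as a group is read from it. The adjusted p was 2.69e-08 for caspase 2, 5.64e-17 for PDCD5 and 0.000373 for CDC23. For caspase 2 the difference in SMG exceeded that in SB825 by 4.14 (standard error 0.45) and that in SMH by 2.43 (0.41) on the log2 scale. SMH exceeded SB825 by 1.71 (0.44). For PDCD5 the difference was largest in SB825, at -4.64 (0.20) for SMG minus SB825 and -4.53 (0.20) for SMH minus SB825, while SMG minus SMH was -0.11 (0.17, adjusted p = 0.615). For CDC23 it was SB825 that had the smaller difference, by 0.81 (0.22) against SMG and 1.1 (0.24) against SMH. SMG minus SMH was -0.29 (0.24, adjusted p = 0.304). The SMH minus SB825 differences do not involve the young SMG libraries.

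**Figure D2:**
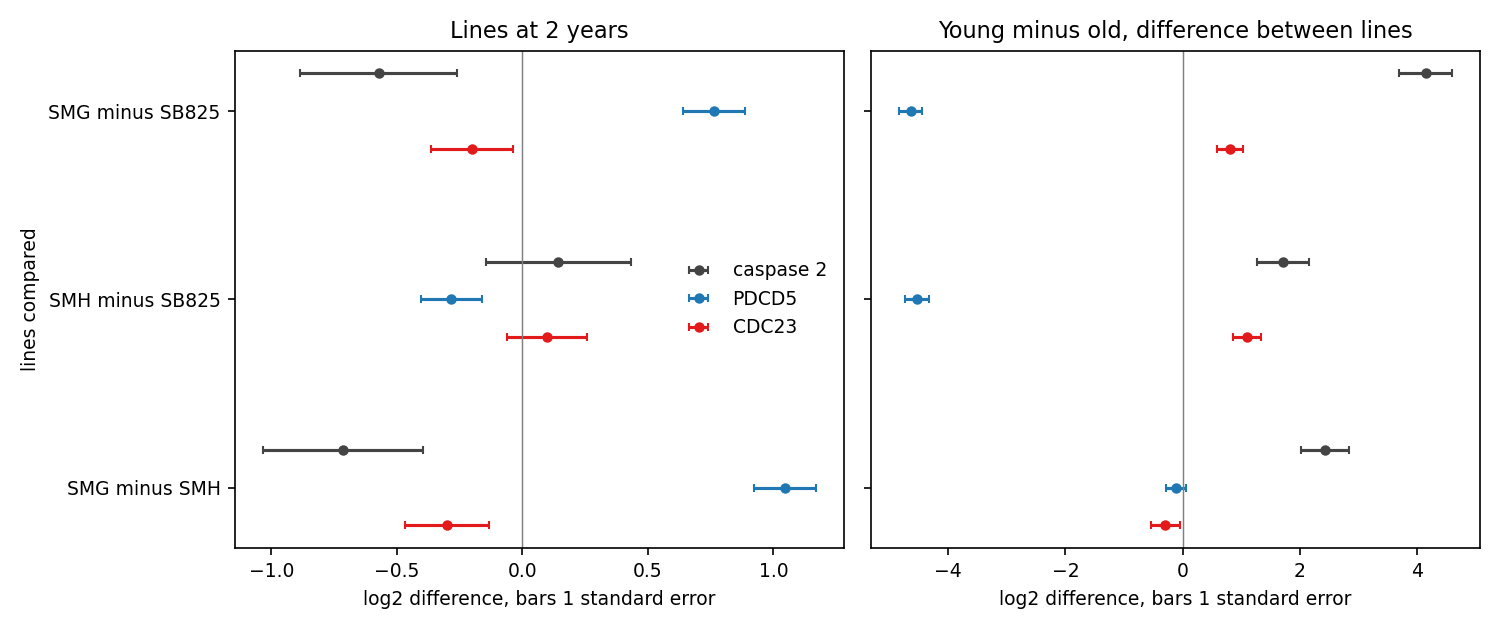
Differences between lines in log2 units with bars of 1 standard error, from fits on libraries: on the left the level at 2 years, on the right the young minus old difference. At 2 years PDCD5 lies off 0 (0.76 and 1.05), and on the right caspase 2 and PDCD5 lie on opposite sides for SMG minus SB825 (4.14 and -4.64).

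A second contig has caspase 2 as its closest human protein, Bot_rep_c39524, with 344 reads over all libraries against 1602 for the member. It was at 0.0772, 0.0262 and 0.0286 CPM in old, 2-year and young SB825, and at 0.385, 0.0935 and 0.0181 CPM in SMH. In SMG it was at 2.53 CPM in the old colony, at 0.0450 at 2 years, and without a read in the young colony, where the member was highest. The 2 contigs therefore had their highest levels at opposite ages of the same line. This second contig was listed by the study for its old and young difference, so that pattern is a description. Whether reads of related caspase transcripts were split between contigs cannot be told from these counts.

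**Figure D3:**
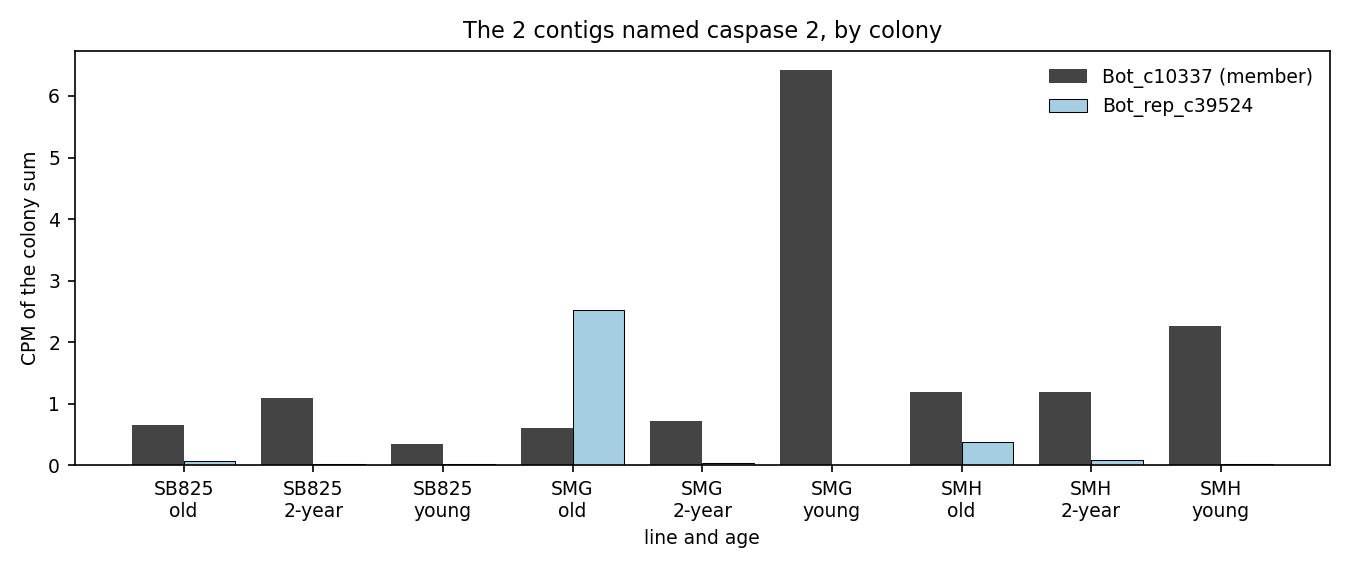
CPM of the 2 contigs named caspase 2 in the 9 colony sums, ordered by line and age, on a linear axis that starts at 0. The member peaks in young SMG (6.41 CPM), and Bot_rep_c39524 peaks in old SMG (2.53 CPM).

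The other contigs named for apoptosis, division, ubiquitin transfer, clearance and DNA synthesis were taken from the part used here of a table that the study made of contigs with an old and young difference. Of its 1998 rows, 89.2% were higher in old colonies (87.8% without SMG), against 60.2% of all tested contigs (52.4% without SMG). PDCD5 is in these rows, and caspase 2 and CDC23 are not. The directions of the lists are therefore a description, and a list mostly higher in old colonies is no trait of its genes. Of 8 apoptosis contigs besides the members, 1 was higher in young and 7 (87.5%) were higher in old colonies by the mean over lines of the log2 ratio of CPM with 0.01 added, and the same counts held under both other scalings and without SMG. The exception was cytochrome c (CAP3_round1_contig_5380), the electron carrier whose release from mitochondria starts caspase activation. It had the most reads of the list and was at 11.2, 47.5 and 241 CPM in old, 2-year and young SB825, at 55.8, 76.1 and 239 CPM in SMG, and at 14.5, 10.1 and 10.2 CPM in SMH, so in SMH the young level was not above the old one. Baculoviral IAP repeat-containing protein 2 (Bot_c10263), an inhibitor of apoptosis with ubiquitin ligase activity, was at 3.01, 1.99 and 1.98 CPM in SB825, at 2.68, 2.66 and 0 in SMG and at 1.66, 0.841 and 0 in SMH. TIGAR (Bot_c21200), a p53 target that in human cells lowers glycolysis, was at 1.03, 0.982 and 0.802 CPM in SB825, at 5.48, 5.38 and 0.152 in SMG and at 8.02, 6.43 and 0.979 in SMH.

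Of these 8 contigs, 0 passed the line test over colonies and 0 the midpoint test, beside 3.13% and 0% of all contigs. Between the 2-year colonies 6 differed, and 8 had a young minus old difference that varied with line, beside 74.7% and 80.8% of all contigs. The median log2 difference of the 8 from the midpoint was 0.72, against 0.05 over all contigs. Since FAS-associated factor 1 and Bot_c10263 were at 0 CPM in young SMG and young SMH, and the list came from rows with an old and young difference, this median is read as no trait of these genes.

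The division list of CDC23 held 8 further contigs, of which 2 were higher in young and 6 (75.0%) in old colonies, with or without SMG. Enhancer of rudimentary homolog, a small conserved protein linked to cell cycle progression, had 3 contigs, which went different ways. Bot_rep_c55453, with the most reads of the list, was at 52.0, 51.5 and 87.3 CPM in old, 2-year and young SB825, at 24.1, 26.95 and 129 in SMG and at 4.50, 29.3 and 72.7 in SMH, close in shape to CDC23. Bot_rep_c56477 was at 2.10, 2.44 and 4.12 CPM in SB825, higher in young, but at 14.7, 15.5 and 0.0569 in SMG and at 26.7, 2.47 and 2.36 in SMH. Bot_rep_c54038 was at 1.48, 0.118 and 0.387 CPM in SB825, at 1.38, 1.44 and 0 in SMG and at 5.95, 5.10 and 0.163 in SMH. All 8 contigs passed both tests on libraries (the 2-year level and the young minus old difference between lines), beside 74.7% and 80.8% of all contigs. On colonies 0 passed the line test or the midpoint test, beside 3.13% and 0% of all contigs. The median difference from the midpoint was 0.37, with some of these contigs at 0 in young SMG.

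The 4 contigs named for ubiquitin transfer, the reaction the anaphase-promoting complex carries out, were all higher in old colonies by the mean over lines, with or without SMG, as most rows of that table were. The ubiquitin-conjugating enzyme E2 R2 (CAP3_round1_contig_8583), a partner of cullin-based ligases, had the most reads and was at 13.1, 37.5 and 17.3 CPM in old, 2-year and young SB825, where young was above old, at 57.2, 80.7 and 0.228 in SMG and at 36.5, 34.7 and 0.942 in SMH. E2 D4 (Bot_rep_c50513) was at 1.67, 1.82 and 1.35 CPM in SB825, at 23.5, 0.720 and 0 in SMG and at 21.7, 25.5 and 1.18 in SMH. Polyubiquitin-C (Bot_rep_c39129), a precursor of ubiquitin itself, was at 3.3, 1.62 and 0.0143 CPM in SB825, at 2.47, 1.08 and 0 in SMG and at 1.38, 12.4 and 0.0362 in SMH. Of the 4, 3 differed between the 2-year colonies and 3 varied with line in their young minus old difference, beside 74.7% and 80.8% of all contigs. On colonies 0 passed the line test or the midpoint test, beside 3.13% and 0% of all contigs. The median difference of the 4 from the midpoint was 1.13, with E2 D4 and polyubiquitin-C at 0 in young SMG, and is read as no trait of these genes.

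Clearance of dead cells was represented by 12 contigs, all higher in old colonies with or without SMG, beside the 89.2% of the table. Stabilin-2 (CAP3_round1_contig_9123), a scavenger receptor that binds apoptotic cells in mammals, had the most reads, at 312, 130 and 16.3 CPM in old, 2-year and young SB825, 584, 489 and 10.1 in SMG and 343, 551 and 55.7 in SMH. Stabilin-1 (CAP3_round1_contig_9061), its relative, was at 29.9, 28.5 and 7.37 CPM in SB825, at 48.2, 15.8 and 8.06 in SMG and at 23.6, 0.785 and 1.12 in SMH. Lactadherin (CAP3_round1_contig_1942), which bridges dying cells and phagocytes, was at 6.88, 4.37 and 4.08 CPM in SB825, at 15.5, 19.3 and 0.645 in SMG and at 7.29, 11.4 and 4.88 in SMH. Of the 12, 8 differed between the 2-year colonies and 9 varied with line, beside 74.7% and 80.8% of all contigs. The line and midpoint tests on colonies were passed by 0 of them, beside 3.13% and 0% of all contigs.

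Of the 11 contigs named for DNA synthesis and replication histones, 11 were higher in old colonies by the mean over lines, and 8 without SMG. Deoxycytidylate deaminase (CAP3_round1_contig_3620), which supplies a thymidylate precursor, had the most reads and was at 11.2, 12.0 and 6.31 CPM in old, 2-year and young SB825, 15.5, 17.6 and 1.39 in SMG and 9.62, 11.6 and 2.34 in SMH. The histones named here were high in a pair of colonies of different age. Histone H4 (Bot_c7573) was at 7.16 CPM in old SMG and 30.6 in 2-year SMH and at no more than 0.0405 in the other 7 colonies. Histone H2A type 1-C (Bot_rep_c36360) was at 12.3 and 42.1 CPM in the same colonies, and histone H2B type 1-A (Bot_c4120) at 8.59 and 30.3, so their old level came almost entirely from old SMG. Whether these contigs are Botryllus transcripts was not checked. Of the 11, 9 differed between the 2-year colonies and 6 varied with line, beside 74.7% and 80.8% of all contigs. The line and midpoint tests on colonies were passed by 0 of them, beside 3.13% and 0% of all contigs. No median is given for this list or for the clearance list, because some of their contigs had no read in any young colony.

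Summed levels of contigs named for particular cell types and tissues stand beside the members as follows. These contigs came from the same 1998 rows, which the study listed for an old and young difference and of which 89.2% were higher in old colonies. Their sums by age are therefore a description and no measure of tissue content. The 82 contigs named for digestive enzymes summed to 4947 to 6783 CPM in old, 3427 to 9745 in 2-year and 557 to 1973 in young colonies. By the mean over lines 81 of them were higher in old colonies. The exception, carboxypeptidase A2 (CAP3_round1_contig_6849), named after its values were seen, had 45.8, 51.2 and 75.8 CPM in old SB825, SMG and SMH. In the young colonies of these lines it had 152, 588 and 312 CPM, a large part of the young sums. The 34 sperm and axoneme contigs summed to 70.2 to 347 CPM in old, 163 to 553 in 2-year and 5.03 to 78.8 in young colonies, with 13 at 0 in young SMG and 5 at 0 in young SMH. The 4 muscle contigs summed to 30.5 to 86.9 CPM in old, 58.6 to 100.2 in 2-year and 86.8 to 198 in young colonies, and 2 of them were at 0 in young SMG. The muscle sum is nearly all troponin T (Bot_rep_c51715), named after its values were seen, which had 84.2, 33.2 and 25.4 CPM in old and 196, 180 and 85.8 in young SB825, SMG and SMH. The other 3 muscle contigs were higher in old colonies by the mean over lines.

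The 28 ribosomal protein contigs summed to 1655 to 5227 CPM in old, 1053 to 6330 in 2-year and 6868 to 17441 in young colonies. This sum is mostly 1 contig, 40S ribosomal protein S21 (CAP3_round1_contig_5268), also named after its values were seen, and the other 27 were higher in old colonies by the mean over lines (14 of the 28 without SMG). Most of these contigs had no read in most colonies (14 to 27 of 28 at 0), but 0 of them were at 0 in old SMG and in 2-year SMH, the colonies that also held the histones. Whether contigs read mainly in those colonies are Botryllus transcripts was not checked. The part of these lists in the members' levels was not tested.

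**Figure D4:**
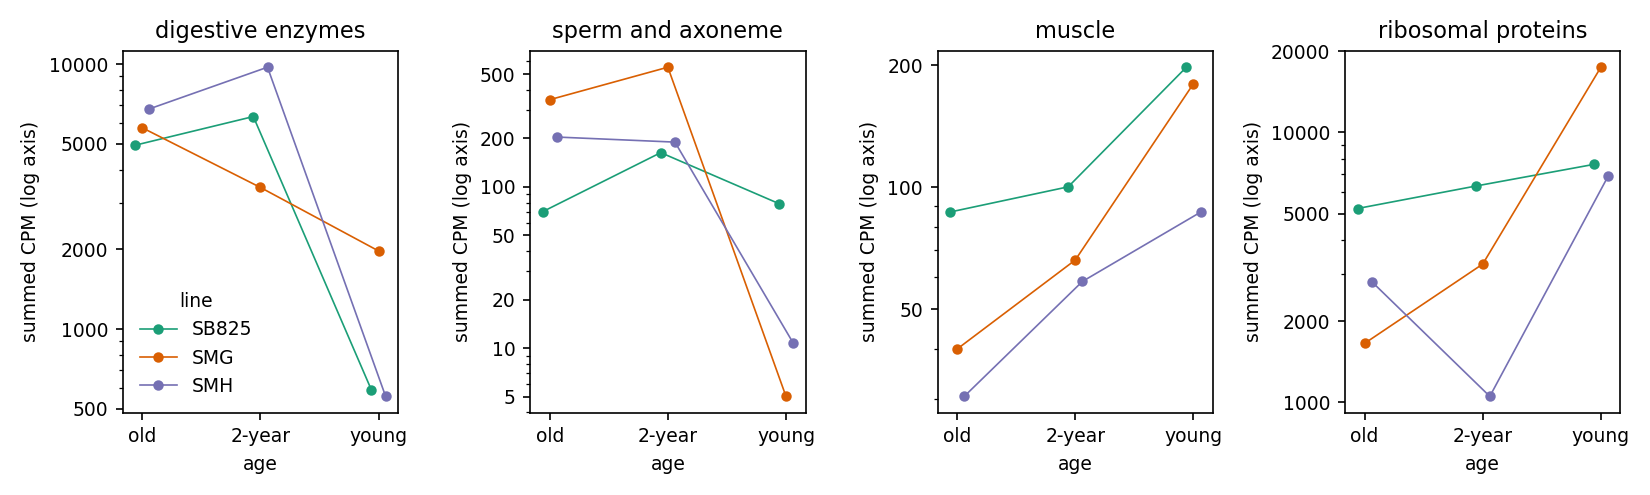
Summed CPM (log axis) of the contigs named for digestive enzymes, sperm and axoneme, muscle and ribosomal proteins in the 9 colonies, by age, with 1 line per Botryllus line. Digestive enzyme sums are 557 to 1973 CPM in young against 4947 to 6783 in old colonies, and the muscle and ribosomal protein sums are each mostly 1 contig (troponin T and 40S ribosomal protein S21). All lists hold contigs that the study listed for an old and young difference.

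The contigs most like each member were found by Pearson's r of log2(CPM + 1) over the 9 colonies, among 29969 contigs with a mean of at least 1 CPM. The colonies share their lines and ages with the contrast that chose the members, so r is a description, and the order among the closest contigs changed with the pseudocount. Caspase 2 was most like Bot_rep_c54696 (r = 0.98), CAP3_round1_contig_3611 (0.98) and Bot_c847 (0.98), which have no name here and ranked 3, 6 and 10 with 0.1 in place of 1, and 19, 12 and 32 without young SMG (r of 0.93, 0.93 and 0.92). Its closest named contig was collagen alpha 1 (II) chain (CAP3_round1_contig_8075, r = 0.97), at 593 CPM in young SMG and 118 to 256 in the other colonies. Collagen ranked 5, then 27 with 0.1 added and 85 without young SMG (r = 0.89). PDCD5 was most like Bot_c22845 (0.97), CCTT37224.g1 (0.96) and CAP3_round1_contig_2609 (0.96), which ranked 2, 1 and 6 with 0.1 added and 3, 8 and 1 without young SMG. Its closest named contig was low molecular weight phosphotyrosine protein phosphatase (CAP3_round1_contig_7419, 0.92), at 1.93, 5.85 and 9.01 CPM in old, 2-year and young SB825.

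CDC23 was most like CAP3_round1_contig_5311 (0.99), CAP3_round1_contig_2539 (0.98) and Bot_c12969 (0.98), which ranked 2, 1 and 3 with 0.1 added and 2, 4 and 1 without young SMG. Its closest named contig was the enhancer of rudimentary homolog Bot_rep_c55453 (0.94). The contigs above were picked as the closest of 29969, so their high r follows from that choice. Among the members, caspase 2 had an r of 0.46 with PDCD5 (rank 8828) and 0.39 with CDC23 (rank 9989). PDCD5 and CDC23 had an r of 0.55 (rank 3467 for PDCD5). Without young SMG these r were -0.08, -0.31 and 0.33.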

How the data were processed

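Raw read counts per contig for 27 libraries were deposited by the authors. According to the methods, libraries were paired-end, polyA-selected and sequenced on an Illumina HiSeq, the first 12 bases were trimmed, reads were aligned with Bowtie 0.12.7 to an EST assembly of this species and counted per contig without unique molecular identifiers. A deposited table of the authors' own old against young comparison (means, fold changes and p-values) was not used.

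The study describes 3 biological replicates per genotype. Counts were nevertheless summed per line and age, because the 3 libraries carry 1 genotype name and so are replicates of that genotype, not of an age or a line, and p-values on libraries measure only the spread within a genotype. Tests used edgeR 4.0.16 (quasi-likelihood, robust, TMM, filterByExpr, Benjamini-Hochberg over all contigs, 10% false discovery rate) in R 4.3.3. The fits were also run on simulated counts with large planted changes and a fixed dispersion, which does not measure their power or error rate in these data. DESeq2 1.42.0, other scalings, no filter, read pairs and leaving out colonies or libraries were alternatives. Contig lengths and sequences were not used here, so levels were not compared between contigs.

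Homolog names came from the study's lists, of which the first 1998 rows were used (1119 without a name). Named contigs were the 3 members, other contigs named caspase 2, the contig with the most reads and up to 3 past the threshold with the smallest p in each list, and for each member the 3 contigs of highest r and the named one. Members and lists were chosen with earlier results of these data known. Other orders of the colonies, likeness and list directions without SMG were added after seeing the data.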

Additional observations from a re-analysis of the deposited data

Results flagged for a closer look

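Each of 18 groups of 9 libraries (by age or by line, for each member) was searched for a library far from the rest, and chance flags about 1 in 20 such groups. Caspase 2 in library 1 of old SMH lay apart from the other old libraries, with a gap of 0.723 of the whole range (58 reads, 2.01 CPM). CDC23 in library 1 of 2-year SMH lay above the other 2-year libraries by a gap of 0.519 of the range (4.76 CPM). The young minus old difference varied between lines for caspase 2 (adjusted p = 2.69e-08), PDCD5 (5.64e-17) and CDC23 (0.000373) in edgeR's test on libraries, as 80.8% of all contigs did.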

How the results depend on the processing

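Depth limits caspase 2 (10 to 252 reads a library) and PDCD5 in old SB825 most. The count of contigs that differed between lines was 1402, 3558 with library totals alone and 8779 with DESeq2, and it ranged from 0 to 4214 when 1 colony was left out. The cause was not tested. No member passed that test under any of its 14 alternatives (lowest adjusted p 0.1004, PDCD5). DESeq2 called 295 contigs away from the midpoint (244 of them higher at 2 years), against 0 under the other 13 alternatives.

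The difference from the midpoint turned sign for caspase 2 without 2-year SMG (0.2522) or young SMG (0.3563), for PDCD5 without old SB825 (-0.106) or 2-year SB825 (-0.1651), and for CDC23 without 2-year SB825 (0.03255). Over the colonies left out it ranged from -1.031 to 0.3563, from -0.1651 to 0.9546 and from -0.912 to 0.03255 for these members, short of the threshold throughout. At 2 years, caspase 2 came past the threshold with library totals alone (0.0004759) and without 1 of 4 libraries (0.0537 to 0.09819), and CDC23 with library totals alone (5.707e-05). The test of the young minus old difference between lines kept its call for all 3 members under 33 alternatives. Leaving out 1 line moved the mean young over old log2 ratio between 0.00 and 2.15 for caspase 2, 2.30 and 4.56 for PDCD5, and 1.44 and 2.05 for CDC23.

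Replicate numbers were not taken to pair the libraries. Over 108 pairs of same-numbered libraries, deviations had a median correlation of -0.002, and 28 pairs were above 0.1 (-0.36 to 0.26). Pairs with different numbers were not compared, so this does not show whether some same-numbered libraries belong together. With a replicate block, 32060 contigs differed at 2 years and 34702 in their young minus old difference, against 32265 and 34909 without it, and no member changed its call.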
